A study of Mus musculus with 13 samples.

Results

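The 10 genes described here are the mouse VEGF ligand genes Vegfa, Vegfb, Vegfc, Vegfd and Pgf, the receptor genes Flt1, Kdr and Flt4, and the neuropilin genes Nrp1 and Nrp2. They were taken by name, as the rows of both count tables whose Ensembl identifier carries one of these symbols in GENCODE M21, and all 10 were found among 49315 gene identifiers. Bulk RNA sequencing was done in the study on unsorted tissue of female mice, either the lymph node that drains the tumour (tdLN) or the tumour itself, and its title places Jagged-1-positive regulatory T cells (Tregs) in the remodelling of lymphatics in such nodes. Foxp3ΔJag1 mice carried Foxp3eGFP-Cre-ERT2, a tamoxifen-inducible Cre made under the control of the Treg gene Foxp3, with both copies of Jag1 floxed (fl/fl). Foxp3Ctrl mice are given as fl/wt for Jag1 in the design text and as WT in the genotype label, so the labels do not settle whether they lacked 1 copy in Tregs. Tamoxifen was given to both genotypes alike, in 5 doses of 0.1 mg/g, when the mice were aged 6 to 8 weeks. Once 9 drug-free days had passed, 200000 cells of B16F10, a pigmented mouse melanoma line, were placed in the flank skin together with matrigel, at up to 11 weeks of age. The libraries analysed were 3 Foxp3ΔJag1 tdLN, 3 Foxp3Ctrl tumours and 3 Foxp3Ctrl tdLN, the last 2 groups from the same 3 mice by their library names.

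VEGF ligands are secreted dimers that act on receptor tyrosine kinases, chiefly of endothelial cells. VEGF-A binds the products of Flt1 (VEGFR1) and Kdr (VEGFR2) and drives blood vessel growth through the second of these, while VEGF-B and placental growth factor bind, of these receptors, only the first. VEGF-C and VEGF-D act on the product of Flt4 (VEGFR3), the receptor through which lymphatic vessels sprout, and neuropilins are co-receptors that also bind class 3 semaphorins. In lymph nodes Flt4 is expressed mainly by lymphatic endothelium, and VEGF-A and VEGF-C are known to expand the node's vessels during immune responses.

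Total counts were between 32117478 and 44540888 per library, and counts for single members between 47 (Vegfd) and 8831 (Vegfa). Levels are given as CPM (a gene's counts scaled to its library's total), and as TPM, which also divides by exon length, where genes are compared with each other. Summed B cell markers (7 genes) were between 3538 and 3861 CPM in Foxp3ΔJag1 tdLN, between 2.32 and 4.07 CPM in Foxp3Ctrl tumours and between 3421 and 3875 CPM in Foxp3Ctrl tdLN, and summed pigment markers (8 genes) were between 13.4 and 17.1 CPM, between 18533 and 24314 CPM and between 10.8 and 37.3 CPM in the same groups. The tissue labels thus match these markers. The targeted gene, Jag1, was at 27.8, 20.7 and 23.8 CPM in Foxp3ΔJag1 tdLN and at 22.0, 23.2 and 24.4 CPM in Foxp3Ctrl tdLN (edgeR adjusted p = 0.984), so no loss of Jag1 could be seen in these unsorted nodes.

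Per transcript length, the ligands Vegfb and Vegfa had the highest means in the node, and the ligands Vegfc, Pgf and Vegfd the lowest (the plot of levels per transcript length). In Foxp3ΔJag1 tdLN the order was Vegfb (37.2 ± 2.61 TPM), Vegfa (32.0 ± 2.52), Kdr (25.3 ± 2.60), Nrp1 (20.4 ± 0.210), Nrp2 (19.2 ± 0.119), Flt4 (8.91 ± 0.410), Flt1 (7.58 ± 1.07), Vegfc (6.69 ± 0.0740), Pgf (5.34 ± 0.941) and Vegfd (1.79 ± 0.251 TPM; SD, n = 3). Only Flt1 and Vegfc overlapped among neighbours in that order. In Foxp3Ctrl tumours Vegfb reached 229 ± 23.8 TPM and Vegfa 148 ± 37.5 TPM, followed at a distance by Nrp2 (28.0 ± 4.09), Nrp1 (22.8 ± 3.44), Pgf (21.4 ± 7.31), Vegfc (15.3 ± 1.90), Kdr (11.6 ± 2.38), Flt1 (9.94 ± 2.64), Flt4 (5.94 ± 0.624) and Vegfd (5.82 ± 3.37 TPM; SD, n = 3). From Nrp2 down to Vegfd each neighbouring pair in the tumour overlapped except Flt1 and Flt4. Foxp3Ctrl tdLN had the same order as Foxp3ΔJag1 tdLN, from Vegfb (40.6 ± 4.27) and Vegfa (31.6 ± 2.35) to Vegfd (2.60 ± 1.57 TPM; SD, n = 3), but there all neighbours from Vegfa to Vegfc overlapped. In TPM, Vegfa and Kdr were thus close in nodes and far apart in tumours, where Vegfa stood above Kdr by the ratios given further on. The closeness depends on the exon length, since in CPM Kdr (80.3) was above Vegfa (45.6) in Foxp3Ctrl tdLN. These are transcript levels of whole tissue, and signalling was not measured.

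**Figure D1:**
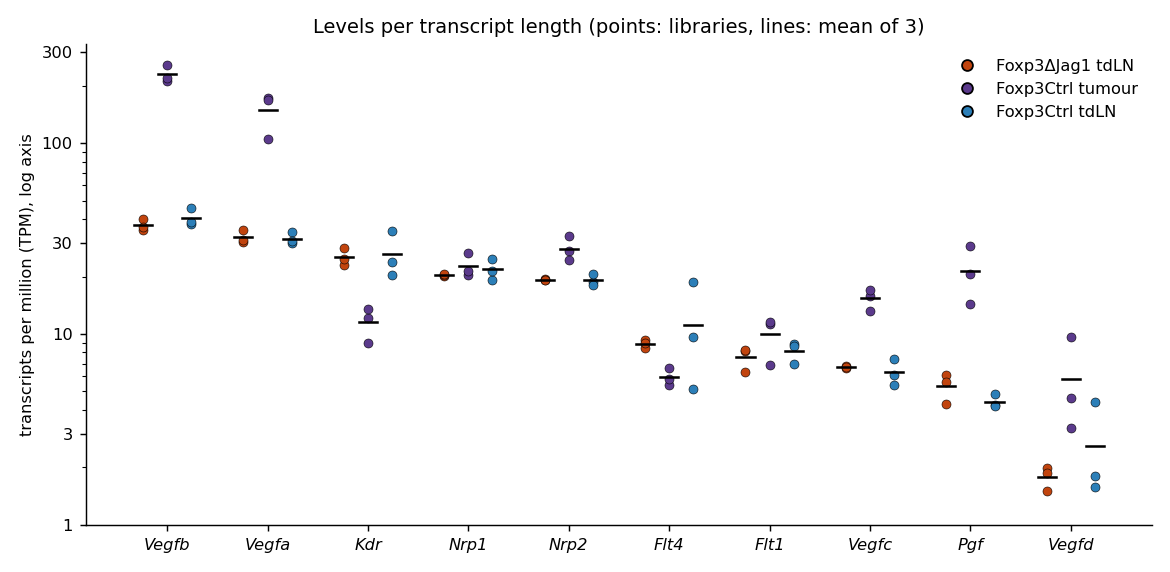
TPM on a log axis for the 10 genes, ordered by their mean in Foxp3Ctrl tdLN, with 1 point per library and a line at the mean of 3 libraries, for Foxp3ΔJag1 tdLN, Foxp3Ctrl tumour and Foxp3Ctrl tdLN. Vegfb and Vegfa are the 2 highest genes in every group, and Kdr stands at 11.6 TPM in tumours, against 26.3 TPM in Foxp3Ctrl tdLN.

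The promoters of the 4 members with the largest changes between tumour and node that passed the test (3 ligands that were higher in tumour and Kdr, which was lower) are shown so that their sequences can be compared. Each is the 250 bases before the RefSeq transcription start on GRCm38.p6, written 5′ to 3′ on the gene's strand, with capitals marking the GC box GGGCGG, a binding motif of SP family factors, or its reverse complement.
Vegfa (chr17:46032378-46032627, minus strand): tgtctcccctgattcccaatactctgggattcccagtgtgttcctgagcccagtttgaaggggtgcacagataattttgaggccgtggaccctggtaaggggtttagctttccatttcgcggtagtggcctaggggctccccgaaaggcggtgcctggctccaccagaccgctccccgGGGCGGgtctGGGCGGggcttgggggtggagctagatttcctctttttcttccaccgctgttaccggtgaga
Vegfb (chr19:6987652-6987901, minus strand): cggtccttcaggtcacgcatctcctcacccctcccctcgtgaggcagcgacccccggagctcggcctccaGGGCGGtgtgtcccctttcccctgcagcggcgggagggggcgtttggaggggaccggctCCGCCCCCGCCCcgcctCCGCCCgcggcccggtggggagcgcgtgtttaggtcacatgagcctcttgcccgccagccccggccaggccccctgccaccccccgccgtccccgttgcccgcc
Pgf (chr12:85177314-85177563, minus strand): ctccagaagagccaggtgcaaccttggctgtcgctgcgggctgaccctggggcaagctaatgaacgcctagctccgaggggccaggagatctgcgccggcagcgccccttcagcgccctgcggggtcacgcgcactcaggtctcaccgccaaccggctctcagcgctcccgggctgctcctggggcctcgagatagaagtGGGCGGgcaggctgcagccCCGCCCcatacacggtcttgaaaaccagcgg
Kdr (chr5:75978456-75978705, minus strand): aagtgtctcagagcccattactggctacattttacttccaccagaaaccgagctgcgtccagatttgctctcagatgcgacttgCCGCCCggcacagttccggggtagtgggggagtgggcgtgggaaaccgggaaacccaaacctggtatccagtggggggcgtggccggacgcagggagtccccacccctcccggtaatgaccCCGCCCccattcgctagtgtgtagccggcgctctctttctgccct
A start is listed for all 10 members, and where a gene has more than 1 the one nearest to the GENCODE start was used. It lies 8 bases from the GENCODE start for Vegfa, 0 for Vegfb, 3 for Kdr and 477 for Pgf. For Pgf it lies downstream, so that the whole window falls inside the gene as GENCODE places it. The same holds for the windows of Flt4 and Nrp1, with starts 416 and 469 bases downstream. A GC box occurs in 9 of the 10 windows, Vegfd being the exception, and in 32.7% of all 32851 windows of this length. The core motif of hypoxia-inducible factors, ACGTG on either strand, occurs in 0 of the 10 windows and in 16.6% of all windows. An ETS core CGGAA occurs in Kdr alone among the 10, and in 25.2% of all windows. The windows of Vegfb, Pgf, Vegfa and Kdr hold 76.4%, 68.4%, 59.2% and 61.6% G and C, against a median of 52.4% over all windows. These matches describe the letters of short windows and say nothing of binding or of sites farther away.

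The first comparison asked how the family differs in the draining node between Jag1 fl/fl mice, with a Cre restricted to Foxp3-expressing cells, and Foxp3Ctrl mice. None of the 10 genes passed the test in Foxp3ΔJag1 tdLN (edgeR quasi-likelihood test, adjusted over 18440 genes at 0.05), none had an unadjusted p under 0.05, and DESeq2 and limma-voom also called 0. Over all genes, edgeR called 7, which is 0.038% (0.0325% higher and 0.00542% lower), DESeq2 called 44, and 3.15% had an unadjusted p under 0.05. The groups overlapped for all 10 members, whereas 7.29% of all genes did not overlap (4.11% higher and 3.18% lower). The members' median log2 fold change was -0.14, with 8 lower and 2 higher, beside -0.0045 over all genes tested. All edgeR adjusted p-values were between 0.953 and 0.986.

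**Figure D2:**
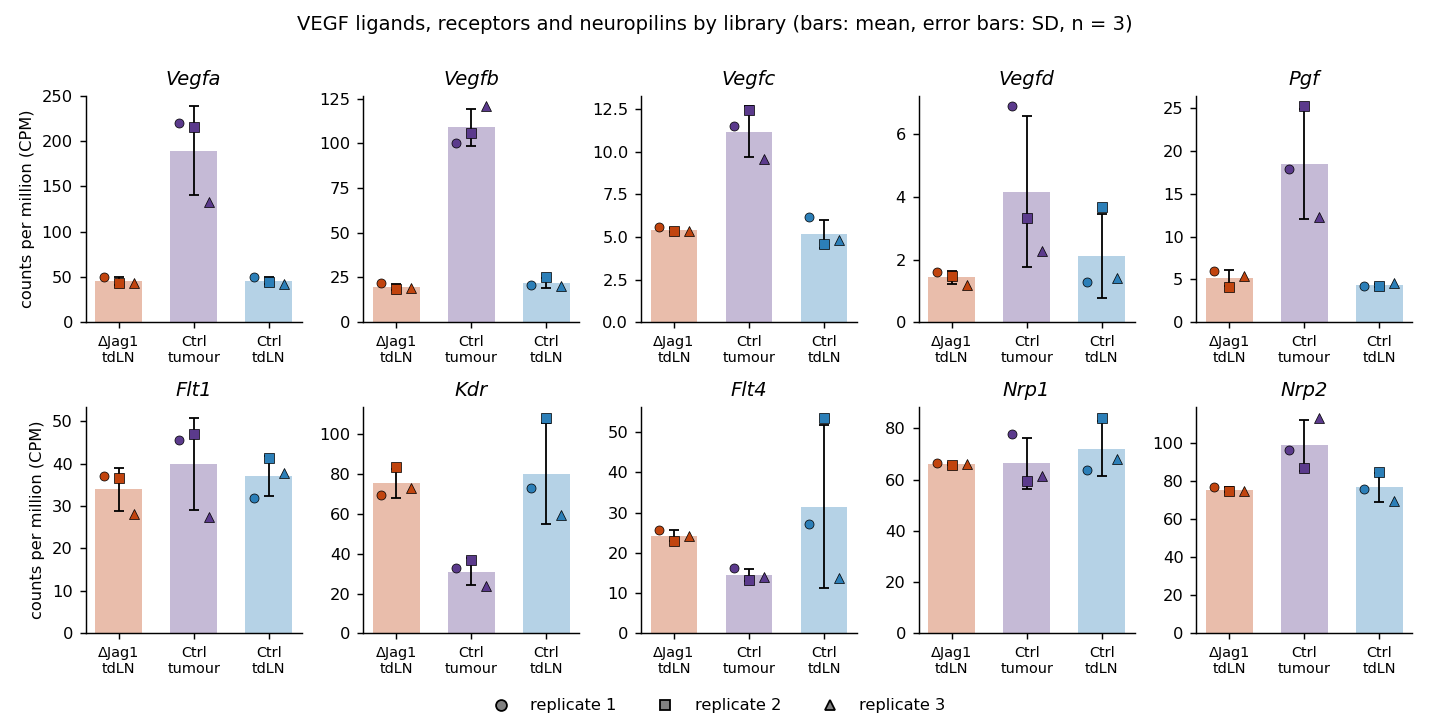
CPM of each gene by library, with bars for the mean and error bars for the SD of 3 libraries, in Foxp3ΔJag1 tdLN, Foxp3Ctrl tumour and Foxp3Ctrl tdLN. Vegfa, Vegfb, Vegfc and Pgf are higher in every tumour than in any node, and Kdr is lower in every tumour. Relative to the mean, the widest spread among nodes is that of Flt4 in Foxp3Ctrl tdLN, between 13.6 and 53.6 CPM (coefficient of variation 64.5%). In CPM, Kdr spreads further in that group, between 59.3 and 108 CPM.

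Among the ligands, Vegfa, the main driver of blood vessel growth, was at 50.3, 42.7 and 43.4 CPM in Foxp3ΔJag1 tdLN, against 50.1, 44.3 and 42.5 CPM in Foxp3Ctrl tdLN. These are near-identical ranges, and the 95% interval of the fold change was 0.835 to 1.15. Vegfc, the lymphatic ligand, was at 5.57, 5.34 and 5.37 CPM in Foxp3ΔJag1 tdLN, against 6.14, 4.60 and 4.82 CPM in Foxp3Ctrl tdLN (fold interval 0.789 to 1.34). The Foxp3ΔJag1 values lay inside the range of the controls. Vegfd, the second lymphatic ligand, was at 1.61, 1.48 and 1.19 CPM in Foxp3ΔJag1 tdLN, against 1.29, 3.67 and 1.41 CPM in Foxp3Ctrl tdLN. Its log2 fold change of -0.62 ± 0.42 (SE) rested on the 1 high control, replicate 2, and was 0.068 without it. Pgf, the placental ligand of VEGFR1, was at 5.96, 4.10 and 5.34 CPM in Foxp3ΔJag1 tdLN, against 4.21, 4.20 and 4.54 CPM in Foxp3Ctrl tdLN (log2 fold change 0.23 ± 0.18 SE). Vegfb, the other ligand restricted to VEGFR1, was at 21.6, 18.5 and 19.2 CPM in Foxp3ΔJag1 tdLN, against 20.6, 25.3 and 20.1 CPM in Foxp3Ctrl tdLN (log2 fold change -0.18 ± 0.13 SE). For both genes the groups overlapped, and the fold intervals were 0.886 to 1.55 for Pgf and 0.722 to 1.07 for Vegfb.

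Among the receptors, Flt4, through which lymphatic vessels respond to VEGF-C, was at 25.7, 23.0 and 24.1 CPM in Foxp3ΔJag1 tdLN, against 27.2, 53.6 and 13.6 CPM in Foxp3Ctrl tdLN. The Foxp3ΔJag1 nodes were close together and lay between the extremes of the controls, whose coefficient of variation was 64.5%, against 5.68% in Foxp3ΔJag1 tdLN. The log2 fold change was -0.41 ± 0.53 (SE), with a fold interval of 0.287 to 1.96, and it was 0.23 without Foxp3Ctrl replicate 2 and -0.79 without Foxp3Ctrl replicate 3 (edgeR adjusted p = 1.00 and 0.317). In whole tissue, fewer cells of a type and less RNA per cell cannot be told apart. The summed CPM of 8 lymphatic endothelial markers (Prox1, Lyve1, Pdpn, Reln, Mmrn1, Ccl21a, Stab2 and Tbx1) was 167, 139 and 160.3 in Foxp3ΔJag1 tdLN, against 194, 317 and 93.5 in Foxp3Ctrl tdLN, so it was highest and lowest in the same nodes as Flt4. This was not particular to lymphatic markers. The summed blood endothelial, macrophage and fibroblastic stroma markers were also highest in Foxp3Ctrl replicate 2 (981, 1040 and 984 CPM). They were lowest in Foxp3Ctrl replicate 3 (747, 564 and 479 CPM). As a share of the lymphatic sum, Flt4 was at 15.4%, 16.5% and 15.0% in Foxp3ΔJag1 tdLN, against 14.0%, 16.9% and 14.6% in Foxp3Ctrl tdLN. The shares overlapped and their log2 difference was 0.05 (exact permutation test, 2-sided p = 0.6, where the smallest p that 3 against 3 allows is 0.1). Of the 7 lymphatic markers tested, 1 was higher and 6 were lower in Foxp3ΔJag1 tdLN, and 0 passed the test. Blood endothelial markers (0 higher and 10 lower), macrophage markers (1 and 7) and fibroblastic stroma markers (1 and 7) leaned the same way. T cell markers (7 higher and 1 lower) and regulatory T cell markers (6 and 1) leaned the other way. None of these markers passed the test either.

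**Figure D3:**
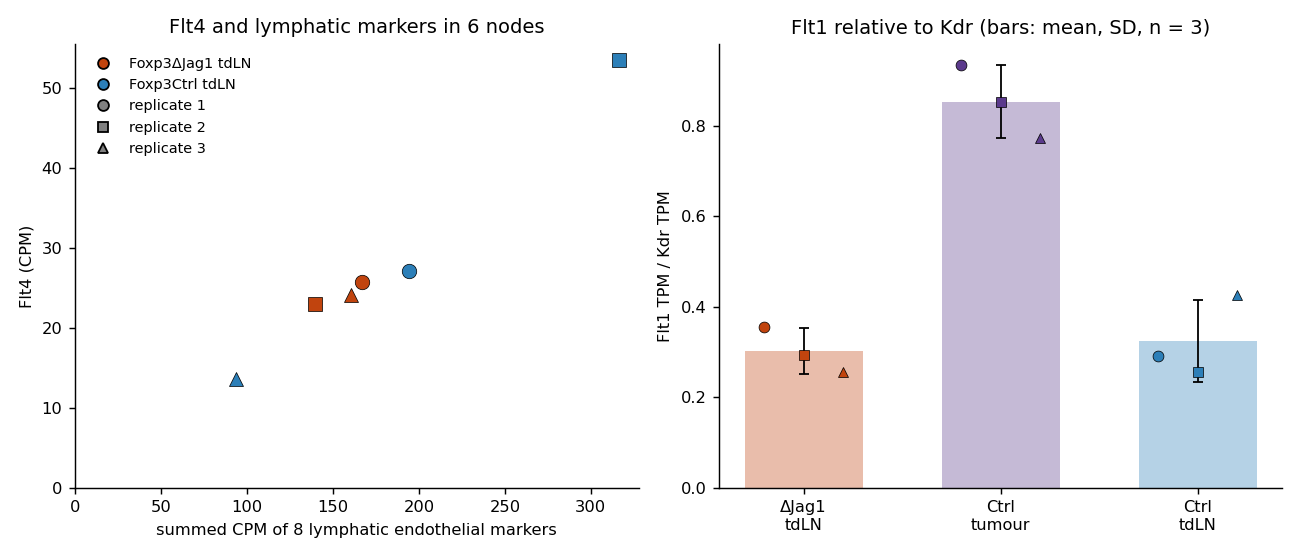
Left, Flt4 CPM against the summed CPM of 8 lymphatic endothelial markers in the 6 nodes, coloured by genotype and shaped by replicate; Foxp3Ctrl tdLN hold both the highest (53.6 CPM) and the lowest (13.6 CPM) Flt4 value. Right, the ratio of Flt1 TPM to Kdr TPM in each library with the mean and SD of 3, which is between 0.772 and 0.933 in tumours and at most 0.427 in any node.

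Kdr, the main signalling receptor of VEGF-A, was at 69.6, 83.5 and 73.2 CPM in Foxp3ΔJag1 tdLN, against 73.2, 108 and 59.3 CPM in Foxp3Ctrl tdLN. Here too the Foxp3Ctrl nodes enclosed the Foxp3ΔJag1 nodes, with replicate 2 the highest and replicate 3 the lowest (log2 fold change -0.12 ± 0.24 SE, fold interval 0.614 to 1.38, and 0.18 on the log2 scale without Foxp3Ctrl replicate 2). The summed CPM of 10 blood endothelial markers (Pecam1, Cdh5, Tie1, Tek, Emcn, Cldn5, Eng, Esam, Erg and Robo4) was 808, 783 and 762 in Foxp3ΔJag1 tdLN, against 750.2, 981 and 747 in Foxp3Ctrl tdLN. Kdr came to 9.63 ± 1.02% of that sum in Foxp3ΔJag1 tdLN and to 9.58 ± 1.57% in Foxp3Ctrl tdLN (SD, n = 3 each; exact permutation 2-sided p = 1). Pecam1 alone was at 397, 403 and 400.4 CPM in Foxp3ΔJag1 tdLN. Without Pecam1 the log2 difference of the share was 0.083 (exact permutation 2-sided p = 0.5). Whether the 10 markers are limited to blood endothelium in these nodes was not tested. Flt1, which binds VEGF-A tightly but signals weakly, was at 37.0, 36.6 and 28.1 CPM in Foxp3ΔJag1 tdLN, against 31.9, 41.4 and 37.8 CPM in Foxp3Ctrl tdLN (log2 fold change -0.15 ± 0.14 SE). Counts are summed per gene, so the soluble form of the Flt1 protein, a decoy, and the splice forms of Vegfa could not be told apart from the other transcripts.

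The neuropilins were the steadiest members of the family in Foxp3ΔJag1 tdLN. Nrp1, the co-receptor of VEGFR2 that Tregs also carry in mice, was at 66.4, 65.7 and 66.0 CPM in Foxp3ΔJag1 tdLN, against 63.7, 84.1 and 68.0 CPM in Foxp3Ctrl tdLN (log2 fold change -0.15 ± 0.11 SE). Nrp2, the co-receptor of VEGFR3, was at 76.8, 74.4 and 74.7 CPM in Foxp3ΔJag1 tdLN, against 75.9, 84.5 and 69.2 CPM in Foxp3Ctrl tdLN (log2 fold change -0.05 ± 0.09 SE). In both cases Foxp3Ctrl replicate 2 was the highest node, as it was for Vegfb, Vegfd and the 3 receptors. This node also had the largest sums of blood endothelial, lymphatic endothelial, macrophage (1040 CPM, against 564 to 803 CPM in the other nodes) and fibroblastic stroma markers (984 CPM, against 479 to 863 CPM), and the part of these cells in the members' values was not tested.

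The wider pathway was examined through 5 lists of 68 genes in all, of which 67 were tested in the node. None of the 67 passed the test in Foxp3ΔJag1 tdLN and none had an unadjusted p under 0.05. For genes that process VEGF-C and VEGF-D the members with the smallest p were Adamts14 (9.67 ± 1.37 CPM in Foxp3ΔJag1 tdLN and 7.57 ± 0.885 CPM in Foxp3Ctrl tdLN) and Adamts3, the protease that cleaves pro-VEGF-C (1.02 ± 0.316 and 1.31 ± 0.134 CPM in the same order of groups; SD, n = 3 each). Among partners of the neuropilins they were Sema3c and Sema3g, with log2 fold changes of -0.74 and -0.36, and among signalling genes the Src family kinase genes Yes1 and Src, with -0.19 and 0.17. Among genes that VEGF induces in endothelium they were Adamts1 and Esm1 (-0.32 and -0.33), and among hypoxia genes and regulators of Vegfa they were Egln3, a hypoxia-induced prolyl hydroxylase gene, and Epas1, which encodes HIF-2α (0.48 and -0.18). Each of these 10 genes had an edgeR adjusted p of 0.953. The list medians lay between -0.16 and -0.04, beside -0.0045 over all genes.

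The second comparison set the tumours of the 3 Foxp3Ctrl mice against their own draining nodes, to show where the ligands and the receptors are found. It shares the Foxp3Ctrl nodes with the first comparison. Ligands were higher and the VEGFR2 gene was lower in the tumour: 4 of the 5 ligands (Vegfa, Vegfb, Pgf and Vegfc) and Nrp2 rose and Kdr fell, while Vegfd, Flt1, Flt4 and Nrp1 did not pass the test (edgeR, adjusted over 18566 genes). Of all genes tested, 35.6% were called higher and 37.6% lower in the tumour, 73.2% in all (75% at an unadjusted p under 0.05), so that 6 called of 10 is no larger a share than among genes in general. The members' median log2 fold change was 0.71, beside -0.05 over all genes tested. Groups did not overlap for the same 6 members, and for 77.9% of all genes (36.5% higher and 41.5% lower).

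**Figure D4:**
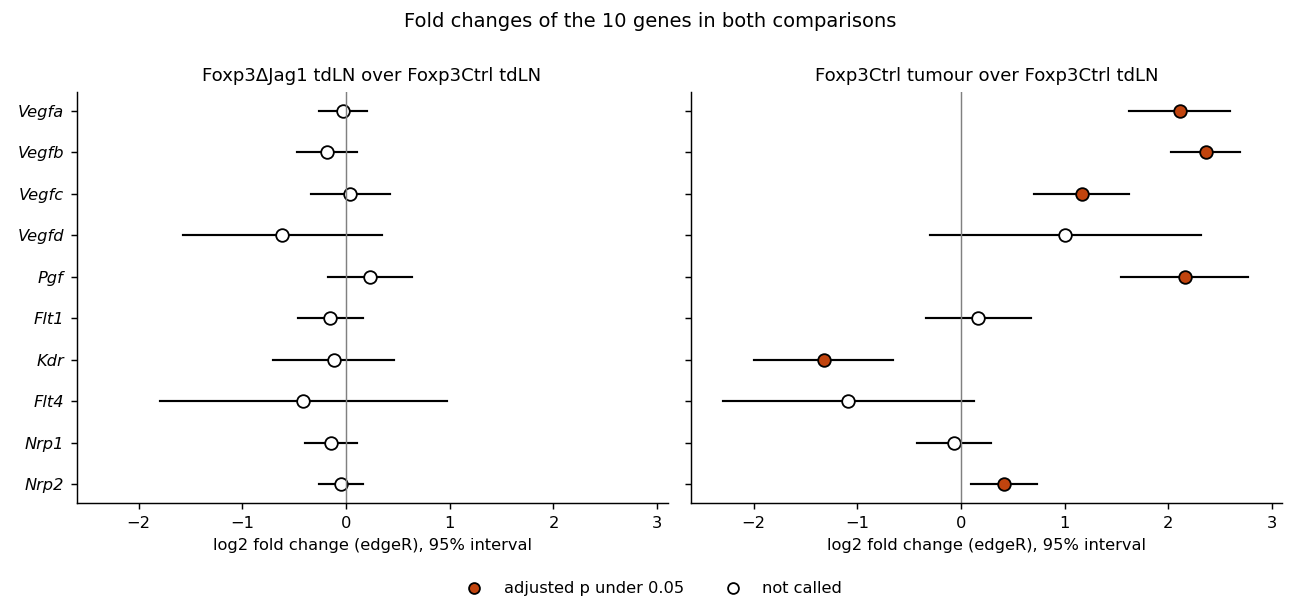
Log2 fold change from edgeR with its 95% interval for the 10 genes, left for Foxp3ΔJag1 tdLN over Foxp3Ctrl tdLN and right for Foxp3Ctrl tumour over Foxp3Ctrl tdLN; filled points have an adjusted p under 0.05. All 10 intervals include 0 on the left, and on the right Vegfb (2.36), Pgf (2.16), Vegfa (2.11), Vegfc (1.16) and Nrp2 (0.42) lie above 0 and Kdr (-1.33) below.

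Vegfb was at 100.4, 106 and 121 CPM in tumours, against 20.6, 25.3 and 20.1 CPM in Foxp3Ctrl tdLN (log2 fold change 2.36 ± 0.14 SE, edgeR adjusted p = 3.62e-06). Every tumour exceeded every node, by 4.87-, 4.19- and 6.00-fold in CPM within mice 1, 2 and 3. Vegfa was at 219.6, 216 and 133 CPM in tumours, against 50.1, 44.3 and 42.5 CPM in Foxp3Ctrl tdLN (log2 fold change 2.11 ± 0.21 SE, edgeR adjusted p = 5.85e-05). Tumour replicate 3 was the lowest of the tumours and still 3.12-fold above the node of its mouse. Pgf was at 17.9, 25.2 and 12.3 CPM in tumours, against 4.21, 4.20 and 4.54 CPM in Foxp3Ctrl tdLN (log2 fold change 2.16 ± 0.26 SE, edgeR adjusted p = 0.000157). The order of the tumours differed between the ligands, since replicate 3 was lowest for Vegfa and Pgf and highest for Vegfb. That tumour also differed in tissue markers. Summed skeletal muscle markers (6 genes) were at 24.8, 34.3 and 269 CPM in tumours 1, 2 and 3. Summed adipocyte markers (7 genes) were at 292, 323 and 33.9 CPM in the same order. The part of such tissue in the ligand values was not tested.

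Vegfc was at 11.5, 12.5 and 9.56 CPM in tumours, against 6.14, 4.60 and 4.82 CPM in Foxp3Ctrl tdLN, so it was 2.24-fold higher (fold interval 1.63 to 3.08, edgeR adjusted p = 0.000931). Its groups did not overlap, though its fold change was the smallest of the 4 ligands that passed. Vegfd was at 6.90, 3.34 and 2.27 CPM in tumours, against 1.29, 3.67 and 1.41 CPM in Foxp3Ctrl tdLN (log2 fold change 1.00 ± 0.56 SE, edgeR adjusted p = 0.140). It did not pass the test, the groups overlapped, and in mouse 2 the tumour was below the node. Its log2 fold change was 0.46 without tumour replicate 1 (edgeR adjusted p = 0.448) and 1.71 without Foxp3Ctrl tdLN replicate 2 (edgeR adjusted p = 0.0201). Fibroblastic stroma markers (8 genes, summed) were at 3534, 1756 and 1257 CPM in tumours 1, 2 and 3, the same order as Vegfd, against 863, 984 and 479 CPM in Foxp3Ctrl tdLN. The collagen genes Col1a1 (1016 ± 552 CPM) and Col3a1 (986 ± 601 CPM; SD, n = 3) made up most of the tumour sum. Of the 8 genes 3 rose, 4 fell (Dcn, Pdgfra, Rgs5 and Ccl19) and 1 was not called, where 35.6% of all genes rose and 37.6% fell. The median log2 fold change of the 8 genes was -0.50, and their part in the Vegfd values was not tested.

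Kdr was at 32.6, 36.8 and 23.7 CPM in tumours, against 73.2, 108 and 59.3 CPM in Foxp3Ctrl tdLN, so the tumours held 0.399 times the node level (fold interval 0.251 to 0.634, log2 fold change -1.33 ± 0.28 SE, edgeR adjusted p = 0.00425). No tumour reached the lowest node, and the ratio was 0.446, 0.339 and 0.400 within mice 1, 2 and 3. Flt1 was at 45.5, 46.9 and 27.4 CPM in tumours, against 31.9, 41.4 and 37.8 CPM in Foxp3Ctrl tdLN (log2 fold change 0.17 ± 0.22 SE, fold interval 0.790 to 1.59, edgeR adjusted p = 0.510). The groups overlapped, and leaving out tumour replicate 3, the lowest library, brought the log2 fold change to 0.41 (edgeR adjusted p = 0.0323). Flt4 was at 16.2, 13.3 and 14.0 CPM in tumours, against 27.2, 53.6 and 13.6 CPM in Foxp3Ctrl tdLN (log2 fold change -1.09 ± 0.50 SE, edgeR adjusted p = 0.0915). Node replicate 3 lay inside the tumour range, and the call depended on the setting: the adjusted p was 0.0133 with DESeq2 and 0.00462 with edgeR without that node, while without node replicate 2 the log2 fold change was -0.42 (edgeR adjusted p = 0.259).

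Of 10 blood endothelial markers, 8 fell, 1 rose and 1 was not called in tumours, where 37.6% of all genes fell and 35.6% rose. The markers' median log2 fold change was -1.14, with the adhesion gene Pecam1 at -2.91 and the TGF-β co-receptor gene Eng at 1.51. As a share of the markers' summed CPM, Kdr was at 5.82%, 6.36% and 5.37% in tumours, against 9.76%, 11.1% and 7.94% in Foxp3Ctrl tdLN. Each tumour was below each node by this measure, but its direction depended on 1 marker. Without Pecam1, the most abundant marker in nodes, the share was 6.55%, 7.02% and 5.84% in tumours, against 19.0%, 20.05% and 16.6% in Foxp3Ctrl tdLN. Without Eng, the most abundant marker in tumours, it was 15.8%, 18.1% and 18.8% in tumours, against 11.7%, 13.0% and 9.29% in Foxp3Ctrl tdLN, so every tumour was then above every node. The part of vessel content in the fall of Kdr was not tested. Within a library, ratios between members do not depend on library scaling, and 3 were computed after the values had been seen, from genes already seen to differ, so they are given without a test. Flt1 to Kdr was 0.933, 0.853 and 0.772 (TPM over TPM) in tumours and 0.356, 0.293 and 0.256 in Foxp3ΔJag1 tdLN, against 0.291, 0.255 and 0.427 in Foxp3Ctrl tdLN. Vegfa to Kdr was 14.2, 12.4 and 11.8 in tumours, against 1.44, 0.861 and 1.51 in Foxp3Ctrl tdLN. Vegfc to Flt4 was 2.38, 3.15 and 2.29 in tumours, against 0.759, 0.288 and 1.19 in Foxp3Ctrl tdLN. Tumours lay above all nodes in each ratio, by 2.69-, 10.3- and 4.04-fold over Foxp3Ctrl tdLN on the geometric mean.

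Nrp1 was at 77.8, 59.5 and 61.5 CPM in tumours, against 63.7, 84.1 and 68.0 CPM in Foxp3Ctrl tdLN (log2 fold change -0.07 ± 0.15 SE, fold interval 0.744 to 1.22, edgeR adjusted p = 0.705). Nrp2 was at 96.0, 86.6 and 113 CPM in tumours, against 75.9, 84.5 and 69.2 CPM in Foxp3Ctrl tdLN (log2 fold change 0.42 ± 0.14 SE, edgeR adjusted p = 0.0243). The Nrp2 values did not overlap, but tumour 2 and node 2 were close. With the mouse as a replicate block the Nrp2 call was lost (edgeR adjusted p = 0.0541), as it was without Foxp3Ctrl tdLN replicate 1 (0.0702) or 3 (0.0800). The genes Gm29083, on the opposite strand, and Gm37121 overlap Nrp2 (chromosome 1, 62703285 to 62818695, GRCm38), and reads shared with them may not be separable.

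The rest of the pathway moved in both directions in the tumour: of the 68 listed genes, 31 rose, 24 fell and 13 were not called. Among all genes tested, 35.6% rose and 37.6% fell, 73.2% in all, so many calls are found in any list. The counts of each list stand beside these shares. Hypoxia genes and regulators of Vegfa had 9 of 13 that rose and 1 that fell, with a list median of 1.55. The 2 with the smallest p were the glycolytic gene Pgk1, at 2394 ± 432 CPM in tumours and 159.8 ± 24.2 CPM in Foxp3Ctrl tdLN, and the vasodilator peptide gene Adm, at 37.5 ± 7.74 CPM in tumours and 6.40 ± 0.996 CPM in Foxp3Ctrl tdLN (SD, n = 3 each; edgeR adjusted p under that of Vegfa for both). Summed over the list, levels were 5789, 6581 and 4457 CPM in tumours 1, 2 and 3, against 1315, 1416 and 1252 CPM in Foxp3Ctrl tdLN. Pgk1 and Ldha (1888 ± 488 CPM in tumours; SD, n = 3) made up most of the tumour sum. Tumour 3 was lowest for the sum and for Vegfa, and also for Vegfc, Vegfd, Pgf, Flt1 and Kdr. The highest was tumour 2 for the sum and tumour 1 for Vegfa, and a link between them was not tested. Genes that VEGF induces in endothelium had 7 of 12 that rose and 4 that fell, with a median of 1.08. The 2 with the smallest p moved in opposite directions: the nuclear receptor gene Nr4a1 was at 128 ± 11.0 CPM in tumours and 42.2 ± 2.68 CPM in Foxp3Ctrl tdLN, and Egr3, a transcription factor that lymphocytes also use, was at 0.970 ± 0.412 CPM in tumours and 35.8 ± 5.57 CPM in Foxp3Ctrl tdLN (SD, n = 3 each).

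Genes that process VEGF-C and VEGF-D split, with 4 of 7 that rose and 3 that fell, beside 35.6% and 37.6% of all genes. The proprotein convertase gene Pcsk7 was at 37.7 ± 0.561 CPM in tumours and 59.8 ± 1.43 CPM in Foxp3Ctrl tdLN, and the lysosomal protease gene Ctsd at 762 ± 81.7 CPM in tumours and 307 ± 72.9 CPM in Foxp3Ctrl tdLN (SD, n = 3 each). Neuropilin partners had 5 of 12 that rose and 4 that fell. Sema3e, a ligand of plexin D1, was at 3.98 ± 1.18 CPM in tumours and 0.0341 ± 0.0107 CPM in Foxp3Ctrl tdLN, less than 3 counts in any of these nodes, and its receptor gene Plxnd1 was at 529 ± 35.4 CPM in tumours and 143 ± 18.0 CPM in Foxp3Ctrl tdLN (SD, n = 3 each). Signalling genes had 6 of 24 that rose and 12 that fell, with a median of -0.38. Prkcb, a protein kinase C gene abundant in B cells, had a log2 fold change of -5.57, and Ptk2, which encodes focal adhesion kinase, had 2.35. Summed T cell markers (8 genes) were between 58.2 and 76.5 CPM in tumours and between 1548 and 1996 CPM in Foxp3Ctrl tdLN, and the part of lymphocyte content in these falls was not tested.

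**Figure D5:**
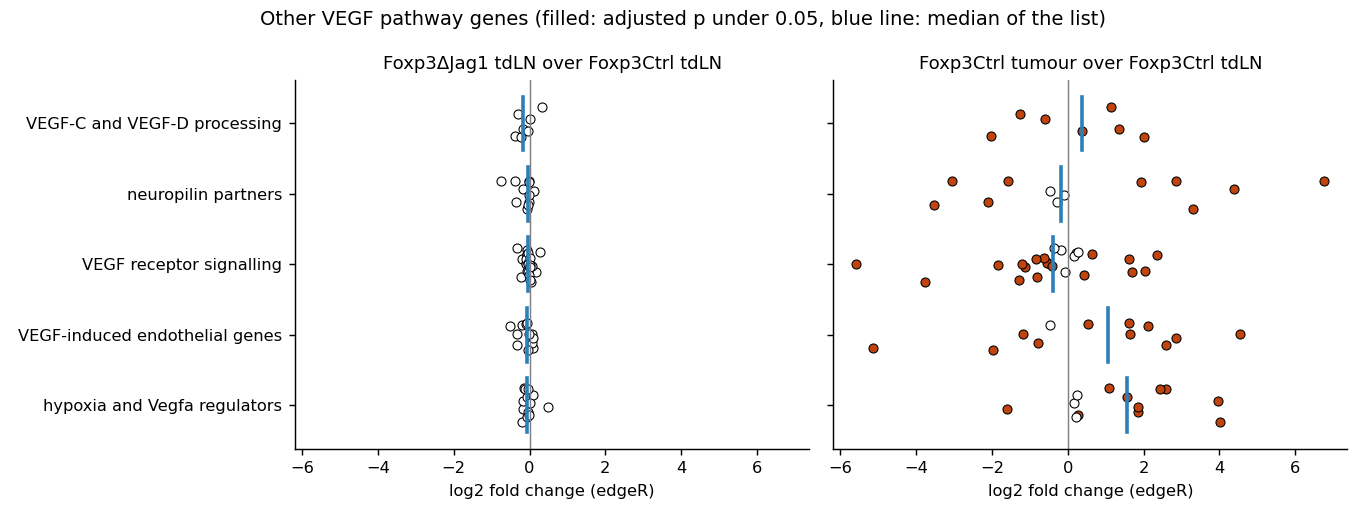
Log2 fold change of each gene on the 5 pathway lists, left for Foxp3ΔJag1 tdLN over Foxp3Ctrl tdLN and right for Foxp3Ctrl tumour over Foxp3Ctrl tdLN; filled points have an edgeR adjusted p under 0.05 and blue lines mark the list medians. No gene is filled on the left, and on the right the median of the hypoxia list (1.55) is the highest and that of the signalling list (-0.38) the lowest.

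The protein-coding genes whose pattern over the 9 libraries was nearest to a member were found by the root mean square difference of log2 CPM, with each gene centred on its own mean, among 14281 genes. For genes that differ between tumour and node, that difference weighs heavily in this measure, and shared regulation was not tested. The genes nearest to Vegfa, whose own values departed from their mean by 1.01, were Gys1, Anxa2 and Bsg (differences of 0.14, 0.14 and 0.15). Gys1, for example, was at 96.4 CPM in tumours and 23.4 CPM in Foxp3Ctrl tdLN. For Kdr, with a departure of 0.66, the nearest were the homeobox gene Hoxd8, the endothelial transcription factor gene Sox18 and Egfl7, which endothelial cells secrete (0.15, 0.15 and 0.16). For Flt4, with 0.61, they included Eef1akmt3 and Ms4a8a (0.23 for both), a looser likeness than that found for Kdr. For Flt1, whose values departed by only 0.28, they were Mrpl53, Pcdh1 and Plpp3 (0.15, 0.16 and 0.16).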

How the data were processed

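The deposited tables hold raw counts of reads per gene, 1 for nodes and 1 for tumours. The submitters' processing notes name GRCm38, featureCounts (Subread 1.5.2), STAR 2.5.2b and Trimmomatic 0.36 as what the authors used. Which annotation and which strand option were used for counting is not given in the sources used here. The labels list 13 samples. Columns matched 9 of them by library name, 3 further tumour columns matched no label and were left out, and the 4 Foxp3ΔJag1 tumours were not analysed here. Symbols, positions and exon lengths came from GENCODE M21, which matched 48970 of 49315 identifiers, and promoters from RefSeq (GRCm38.p6). The members and lists were chosen with earlier results of these data known.

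Genes were tested with the edgeR 4.0.16 quasi-likelihood test in R 4.3.3 (TMM, filterByExpr, robust dispersion, Benjamini-Hochberg adjustment over all genes, threshold 0.05). Each comparison was fitted on its own 6 libraries, without a block. SE and 95% intervals of fold changes come from the F statistic. CPM uses library totals and TPM the union of exons. The named genes were all 10 members, the 2 listed genes with the smallest p per list and comparison, and the 3 genes nearest to Vegfa, Flt1, Kdr and Flt4, of which 1 is not reported here. The fit was tested on simulated data. Alternatives were DESeq2 1.42.0 or its size factors, library size only, limma-voom (limma 3.58.1), other filters, a replicate block, a joint fit and leaving out each library.

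Within each group, pairs of replicates differed beyond sampling noise (17.1 to 75.4 as chi-square over its degrees of freedom), so each counted as 1 sample. Nothing in the labels beyond the sample names says that they are separate animals, so p-values measure the spread between these samples. The depth of 32117478 to 44540888 counts puts 3 counts at 0.0674 to 0.0934 CPM, and covers counting error only. The library names give a tumour and a node the same mouse code, so same-numbered tumours and nodes are paired by animal. Their deviations from the group means correlated at -0.0827, 0.127 and -0.00272.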

Additional observations from a re-analysis of the deposited data

How the results depend on the processing

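The count of members called in Foxp3ΔJag1 tdLN was 0 under every alternative run. The count over all genes in that comparison was 7, and it was 44 with DESeq2, 16 with no filter on low counts, 11 with the replicate number as a block and between 6 and 21 without single nodes (16 without Foxp3ΔJag1 tdLN replicate 2 and 21 without Foxp3Ctrl tdLN replicate 3). There the replicate numbers mark different mice, and same-numbered nodes had deviations that correlated at -0.165, 0.034 and -0.124. Without Foxp3Ctrl tdLN replicate 3, 3175 of 18777 genes had an unadjusted edgeR p under 0.05, against 581 of 18440 with that node, and none was a member. This node had the highest summed epithelial markers (139 CPM, against 13.4 to 45.7 CPM in the other nodes) and pigment markers (37.3 CPM). The part of such content was not tested. In Foxp3Ctrl tumours the count of members called was between 5 and 7 under all alternatives, and the count over all genes between 11788 and 14911. The block by mouse gave 5 members and 13375 genes and changed the call of no member other than Nrp2.

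Without single libraries, some log2 fold changes that had not passed crossed 0. In the node comparison the ranges were -0.10 to 0.043 for Vegfa, -0.028 to 0.18 for Vegfc, -0.88 to 0.068 for Vegfd, -0.32 to 0.18 for Kdr, -0.79 to 0.23 for Flt4 and -0.14 to 0.045 for Nrp2, and in the tissue comparison -0.17 to 0.094 for Nrp1. The log2 difference of Flt4 per lymphatic marker CPM in nodes ranged between -0.0082 and 0.13, and that of Kdr per blood endothelial marker CPM between -0.11 and 0.12. Between tumours and nodes, the log2 difference in Kdr per blood endothelial marker CPM was -0.70, and it was -1.52 without Pecam1 and 0.64 without Eng, alternatives chosen after seeing the data. The cause was not tested. Kdr, Vegfa, Vegfb, Vegfc and Pgf stayed past the threshold in the tissue comparison under every alternative run. Library size alone moved the median of all genes in that comparison to -0.11, against -0.05 with TMM, and turned no member's direction. With 3 libraries a group, intervals for Flt4 and Vegfd are wide, and depth limits only Vegfd, at 47 counts or more.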

Other observations

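Lymphatic endothelial genes other than Flt4 were mostly lower in Foxp3Ctrl tumours, with 6 of the 7 tested lower and 1 higher. By the edgeR test 5 of the 7 fell and 1 rose, where 37.6% of all genes fell and 35.6% rose. The list median log2 fold change was -4.15. Stab2, a hyaluronan scavenger receptor gene of sinus endothelium, was at 0.344 ± 0.124 CPM in tumours and 47.8 ± 25.9 CPM in Foxp3Ctrl tdLN. The matrix gene Reln was at 0.676 ± 0.331 CPM in tumours and 15.1 ± 9.25 CPM in Foxp3Ctrl tdLN, and Lyve1, a hyaluronan receptor gene, at 14.0 ± 11.3 CPM in tumours and 87.3 ± 54.6 CPM in Foxp3Ctrl tdLN (SD, n = 3 each). Prox1, the transcription factor of lymphatic identity, did not pass the test, at 8.42 ± 2.66 CPM in tumours and 15.1 ± 6.62 CPM in Foxp3Ctrl tdLN (SD, n = 3 each; edgeR adjusted p = 0.0977), as Flt4 did not. Podoplanin (Pdpn), which other cells also make, rose to 52.7 ± 9.53 CPM in tumours, against 9.73 ± 2.20 CPM in Foxp3Ctrl tdLN. Ccl21a was not tested, with 0 counts in each tumour and 1, 2 and 4 counts in Foxp3Ctrl tdLN. It added at most 0.121 CPM to the lymphatic marker sum of any node, and why so few of its reads were counted was not tested. The choice of these genes followed from their values, and whether Flt4 and Prox1 differ from the genes that fell was not tested.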
